A study of Rattus norvegicus with 56 samples.

Results

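The 13 genes described here are the protein-coding genes of the rat mitochondrial genome. They are all genes whose symbol begins with Mt- in the 30 min table, followed in the 3 h table by Ensembl identifier, and they make up 13 of 32883 gene identifiers. All 13 carried the same name in both tables. Mt-nd1, Mt-nd2, Mt-nd3, Mt-nd4, Mt-nd4l, Mt-nd5 and Mt-nd6 encode subunits of respiratory complex I (NADH dehydrogenase). Mt-cyb encodes cytochrome b of complex III. Mt-co1, Mt-co2 and Mt-co3 encode the catalytic core of complex IV (cytochrome c oxidase), and Mt-atp6 and Mt-atp8 encode membrane subunits of complex V (ATP synthase).

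The study sequenced RNA from tubules microdissected from kidneys of male Sprague-Dawley rats. The left ureter was ligated (unilateral ureteral obstruction, UUO) or was exposed without ligation (sham), so that anaesthesia and flank surgery were common to both arms. Cortical collecting ducts (CCD) and cortical thick ascending limbs (cTAL) were taken at 30 min and at 3 h, each time with its own sham group, which gave 8 groups of 4 numbered replicates. A CCD replicate was the mean of 2 libraries and a cTAL replicate was 1 library. The labels do not say that a CCD and a cTAL replicate of the same number came from the same animal, and the segments were compared by number. The labels name no genetic modification, and the ages of the rats and the number of tubules pooled per library are not given in the sources used here.

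The mitochondrial genome is a small circular DNA present in many copies per cell. It is transcribed from both strands into long precursors, which are cut mainly at the transfer RNAs that lie between the genes and are then polyadenylated, degraded or translated inside the organelle. Mt-nd6 is the protein-coding gene whose template is the opposite strand from that of the other members. Mt-atp8 with Mt-atp6, and Mt-nd4l with Mt-nd4, overlap and share a messenger RNA. The thick ascending limb reabsorbs sodium chloride against a steep gradient through the sodium pump and is among the segments of the nephron richest in mitochondria, whereas the collecting duct is made of principal cells, which reabsorb sodium and water, and intercalated cells, which secrete acid or base.

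Values are TPM, a level per transcript length scaled to the same total (1000000) in each library. A TPM value therefore depends on what every other gene contributes, and sequencing depth, which TPM does not keep, is unknown. A library of the 30 min table had 8744 to 11916 genes that reached 1 TPM, and at 3 h between 9585 and 10750 did. The sum of 8 principal cell markers was 10460 ± 2077 TPM (SD, n = 4) in sham CCD and 85.3 ± 25.0 TPM in sham cTAL at 30 min, and the sum of 7 thick ascending limb markers was 1180 ± 352 and 62319 ± 14031 TPM. The same contrast was present at 3 h, so these marker sums were higher in the segment that the labels give. At that time the thick ascending limb sum was 2874 ± 2535 TPM in sham CCD and 45785 ± 11816 TPM in sham cTAL. In UUO it was 2842 ± 5022 TPM in CCD and 35104 ± 2071 TPM in cTAL, and the highest UUO CCD replicate held 10373 TPM. Library 2 of UUO replicate 2 in CCD at 30 min stood apart: fewer genes reached 1 TPM in it than in any other library of its table, and Mt-co3 made up 9.38% of its mitochondrial TPM against 22.1% in library 1 of the same replicate. The library preparation does not mark strand, so reads of Mt-nd6 and of heavy-strand RNA lying across it cannot be told apart. Likewise, the split of reads between the genes of an overlapping pair, and between these genes and near-identical nuclear copies of mitochondrial DNA, depended on the authors' counting.

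The 13 genes together held a large part of every library. In sham CCD at 30 min they took up 18.9, 15.2, 14.1 and 14.7% of all TPM in replicates 1 to 4, and in sham cTAL 24.7, 24.7, 26.2 and 20.5%. The means were 15.7 ± 2.15% and 24.0 ± 2.45% (SD, n = 4), and the segments did not overlap. At 3 h the share was 5.80, 4.95, 7.12 and 6.31% in sham CCD and 10.3, 9.20, 11.1 and 12.9% in sham cTAL, with means of 6.04 ± 0.912% and 10.9 ± 1.56%. Again every cTAL replicate lay above every CCD replicate. Since the tables were made separately, the lower shares in the 3 h table were not compared with those at 30 min. Of 24 further loci that carry the name of a mitochondrial sequence clone and no gene symbol, 22 were listed at 0 in all libraries. The other 2 together held between 1.18 and 6.72% of a library's TPM at 30 min and between 0.0783 and 0.286% at 3 h, and their type is not given in the tables. These 2 loci averaged 3.21 ± 1.51% in sham CCD and 2.76 ± 0.983% in sham cTAL at 30 min. At 3 h they averaged 0.127 ± 0.0528% and 0.219 ± 0.0657%. The library with the highest share at 30 min (28.5%, cTAL of UUO replicate 1) had a proximal tubule marker sum of 3564 TPM and a thick ascending limb sum of 43645 TPM, the highest and the lowest of its group, and the one with the lowest share (13.8%, sham CCD replicate 3, library 1) had a principal cell sum of 10568 TPM. At 3 h the highest share (12.9%, sham cTAL replicate 4) came with a thick ascending limb sum of 63205 TPM, and the lowest (4.83%, sham CCD replicate 2, library 1) with a principal cell sum of 17551 TPM. The part of these markers in the shares was not tested.

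**Figure D1:**
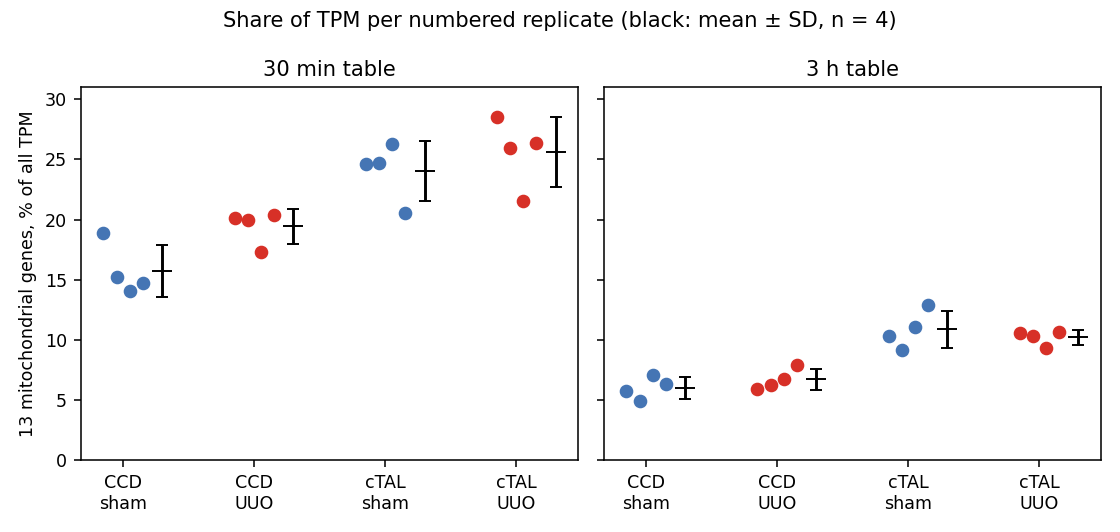
Percent of all TPM held by the 13 mitochondrially encoded genes (y axis) in each numbered replicate (points, blue for sham and red for UUO) of the 4 groups of each table (x axis), with the mean ± SD of 4 replicates in black. In both tables the cTAL groups lie above the CCD groups, and the UUO points overlap the sham points of the same segment.

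Within a library the members spanned a wide range, and complexes IV and V led. In sham CCD at 30 min the order of mean TPM was Mt-atp6 (43121 ± 5552), Mt-co3 (32913 ± 5891), Mt-co2 (18958 ± 2193), Mt-atp8 (16438 ± 1573), Mt-co1 (10396 ± 2473), Mt-nd1 (7830 ± 1709), Mt-nd4l (7767 ± 1396), Mt-cyb (7652 ± 1414), Mt-nd4 (4568 ± 823), Mt-nd2 (4192 ± 948), Mt-nd5 (1623 ± 322), Mt-nd3 (975 ± 102) and Mt-nd6 (711 ± 195; SD, n = 4). Of the 12 pairs of neighbours in this order 7 had overlapping ranges, among them Mt-atp6 with Mt-co3, and the run from Mt-co1 to Mt-cyb. The breaks without overlap came after Mt-co3, Mt-atp8, Mt-cyb, Mt-nd2 and Mt-nd5. Sham cTAL had the same leading 5, with Mt-atp6 at 61514 ± 6362 TPM and Mt-co3 at 60985 ± 9369 TPM, and the same last 3. In each of the 4 groups at 30 min 8 members were among the 10 genes with the highest mean TPM, and at 3 h 3 or 4 were. Complex IV subunits made up 39.6 ± 2.26% of the mitochondrial TPM in sham CCD and 43.0 ± 0.466% in sham cTAL at 30 min, complex V 38.0 ± 1.37% and 36.0 ± 1.33%, complex I 17.5 ± 1.46% and 16.2 ± 0.670%, and complex III 4.85 ± 0.261% and 4.85 ± 0.382%. In the 3 h table complex V came first, with 49.3 ± 2.04% in sham CCD and 48.4 ± 1.96% in sham cTAL, ahead of complex IV with 31.6 ± 2.58% and 33.1 ± 1.87%.

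**Figure D2:**
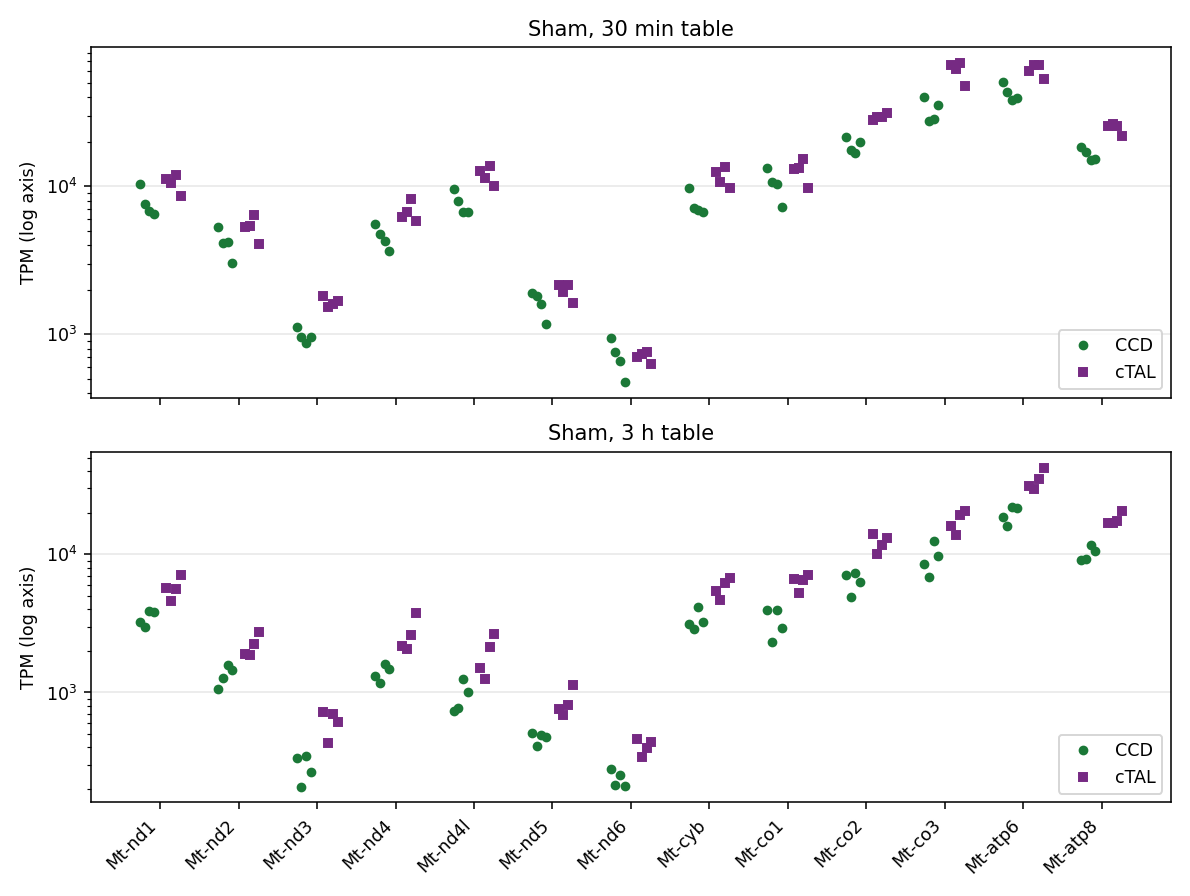
TPM of each of the 13 genes (x axis, ordered by complex) in the 4 sham replicates of CCD (green circles) and cTAL (purple squares), on a log axis, for the 30 min table (top) and the 3 h table (bottom). In the 3 h table the highest mean levels belong to Mt-atp6 and the lowest to Mt-nd6 in both segments, and each numbered cTAL replicate lies above the CCD replicate of its number for 13 of 13 genes.

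The comparison of segments in sham animals asked how these transcripts differ between the collecting duct and the thick ascending limb without obstruction. All 13 genes passed the filter on low values (1 TPM reached by 4 or more of the 8 replicates compared) in every comparison. At 30 min 12 of the 13 genes were lower in CCD than in cTAL (limma on the paired differences of log2(TPM + 1), Benjamini-Hochberg adjusted p under 0.05 over 11648 genes), where 13.2% of all genes tested were called lower in CCD. At 3 h 13 of 13 were lower, where 10.4% of 10521 genes were. Compared without the pairing by number, 9 of 13 were called lower at 30 min and 13 of 13 at 3 h. The members' median difference, CCD minus cTAL on the log2(TPM + 1) scale, was -0.57 at 30 min and -0.83 at 3 h, against a median of 0.30 over all genes tested at each time. The median stayed below 0 after rescaling by median of ratios (-0.92 and -1.16, with the all-gene median moved to -0.02 and 0.02) and with the members left out of the total (-0.72 and -0.91). Quantile normalization, which gives the gene at each rank the same value in every library, moved the medians to -0.0016 and -0.76. It called Mt-atp8 and Mt-co1 higher in CCD at 30 min and Mt-atp6 higher in CCD at 3 h, and left 3 and 10 members called lower. Of all genes it called 2857 higher and 3174 lower of 11474 at 30 min, and 1556 and 1720 of 10511 at 3 h. Among the 10 genes with the highest mean TPM were 8 members in each sham group at 30 min. At 3 h there were 3 in sham CCD and 4 in sham cTAL. The part of rank in the quantile-normalized values was not tested. In these bulk samples, fewer cells of a type and less RNA per cell cannot be told apart, and neither can fewer mitochondrial genomes per cell and less RNA per genome.

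Complex I genes differed unequally between the segments at 30 min. Mt-nd3, a small subunit at the junction of the enzyme's arms, measured 1115, 956, 870 and 957 TPM in sham CCD replicates 1 to 4 and 1816, 1529, 1595 and 1690 TPM in sham cTAL. No CCD value reached the lowest cTAL value, and the level was 1.71-fold lower in CCD (log2 difference -0.77, SE 0.07, adjusted p = 0.000132). Mt-nd4l, a small membrane subunit, measured 9675, 7944, 6692 and 6756 TPM in CCD and 12642, 11483, 13773 and 10037 TPM in cTAL, again without overlap, and was 1.55-fold lower (log2 -0.63, SE 0.11, adjusted p = 0.00247). Mt-nd4 (log2 -0.57), Mt-nd1 (-0.45), Mt-nd2 (-0.35) and Mt-nd5 (-0.29), all parts of the membrane arm, were also called lower, with adjusted p from 0.00700 to 0.0246. The CCD and cTAL ranges of Mt-nd1, Mt-nd2 and Mt-nd5 overlapped, and without the pairing by number Mt-nd2 and Mt-nd5 were not called (adjusted p = 0.138 and 0.158).

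Mt-nd6, singled out after its values were seen, was the member that did not pass at 30 min. It measured 944, 760, 665 and 477 TPM in sham CCD and 706, 732, 759 and 632 TPM in sham cTAL, so that the CCD replicates ranged on both sides of the cTAL replicates. The log2 difference was -0.03 (SE 0.13, 95% interval -0.35 to 0.28, adjusted p = 0.851). As a part of the mitochondrial TPM, Mt-nd6 made up 0.5004, 0.4994, 0.472 and 0.325% in sham CCD and 0.286, 0.296, 0.289 and 0.308% in sham cTAL. At 3 h the same gene was 1.73-fold lower in CCD (log2 -0.79, SE 0.09, adjusted p = 0.00133), close to the other members, with 210 to 277 TPM in CCD and 344 to 463 TPM in cTAL. Whether its difference changed between the times was not tested.

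At 3 h every complex I gene was lower in sham CCD than in sham cTAL. Mt-nd3 had the smallest p again, with 334, 208, 347 and 265 TPM in CCD and 723, 428, 693 and 609 TPM in cTAL. That is a 2.16-fold lower level in CCD (log2 -1.11, SE 0.07, adjusted p = 0.000172). Mt-nd1 measured 3220, 2966, 3895 and 3846 TPM in CCD and 5741, 4596, 5625 and 7065 TPM in cTAL, and was 1.65-fold lower (log2 -0.72, SE 0.08, adjusted p = 0.000984). The other complex I genes beside Mt-nd6 had log2 differences of -0.98 for Mt-nd4l, -0.90 for Mt-nd4, -0.83 for Mt-nd5 and -0.70 for Mt-nd2.

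Cytochrome b and the cytochrome c oxidase subunits followed the same direction. Mt-cyb, which carries the quinone sites of complex III, measured 9755, 7179, 6957 and 6718 TPM in sham CCD at 30 min and 12607, 10788, 13626 and 9717 TPM in sham cTAL. CCD replicate 1 just passed the lowest cTAL replicate, yet each CCD replicate lay below the cTAL replicate of its number, and the gene was 1.53-fold lower (log2 -0.62, SE 0.10, adjusted p = 0.00193). At 3 h it was 1.73-fold lower (log2 -0.79, SE 0.09, adjusted p = 0.00108).

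Mt-co2, the subunit that receives electrons from cytochrome c, measured 21544, 17655, 16701 and 19932 TPM in sham CCD at 30 min and 27992, 29396, 29412 and 31144 TPM in sham cTAL. All cTAL replicates were above all CCD replicates, and the level in CCD was 1.56-fold lower (log2 -0.64, SE 0.09, adjusted p = 0.00075). At 3 h it measured 7131, 4949, 7368 and 6320 TPM in CCD and 14028, 10025, 11779 and 13170 TPM in cTAL, a 1.92-fold lower level (log2 -0.94, SE 0.08, adjusted p = 0.000405).

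Mt-co3, a core subunit without a metal centre, measured 40121, 27845, 28367 and 35319 TPM in sham CCD at 30 min and 66351, 62188, 67983 and 47416 TPM in sham cTAL. It had the most negative difference of the 13 genes at that time, 1.87-fold lower in CCD (log2 -0.91, SE 0.14, adjusted p = 0.00153). At 3 h it measured 8567, 6892, 12531 and 9805 TPM in CCD and 15908, 13863, 19262 and 20512 TPM in cTAL (log2 -0.90, SE 0.09, adjusted p = 0.000571). Mt-co1, which holds the oxygen-reducing centre, was 1.26-fold lower in CCD at 30 min (log2 -0.33, SE 0.10, adjusted p = 0.0274) and 1.97-fold lower at 3 h (log2 -0.98, SE 0.11, adjusted p = 0.00107). Its 30 min ranges overlapped, at 7231 to 13257 TPM in CCD and 9823 to 15279 TPM in cTAL, and its 30 min call was lost without the pairing by number (adjusted p = 0.181).

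The ATP synthase genes were lower in CCD as well. Mt-atp8 measured 18424, 16972, 15073 and 15284 TPM in sham CCD at 30 min and 25756, 26531, 25610 and 21823 TPM in sham cTAL, 1.52-fold lower in CCD without overlap (log2 -0.60, SE 0.07, adjusted p = 0.00047). Mt-atp6, part of the proton channel, was 1.43-fold lower (log2 -0.52, SE 0.10, adjusted p = 0.00336). At 3 h Mt-atp6 measured 18520, 16152, 22169 and 21549 TPM in CCD and 31145, 29924, 35053 and 42224 TPM in cTAL (log2 -0.82, SE 0.07, adjusted p = 0.000407). Its overlapping partner Mt-atp8 measured 9159, 9268, 11612 and 10543 TPM in CCD and 16737, 16964, 17578 and 20749 TPM in cTAL (log2 -0.83, SE 0.08, adjusted p = 0.000534). The CCD and cTAL values of both genes were far apart at 3 h, with no CCD replicate near the cTAL range.

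Number by number, 10 of the 13 genes at 30 min were lower in CCD at all 4 sham replicate numbers, where 16.2% of all genes tested were, and the 3 others were Mt-nd6, Mt-nd2 and Mt-co1. At 3 h 13 of 13 were, against 14.2% of all genes. The calls of Mt-co1 and Mt-nd2 at 30 min were lost without replicate 2, and those of Mt-co1, Mt-nd2 and Mt-nd5 without replicate 3 or without replicate 4. In the UUO animals, a choice of samples added after seeing the data, 10 members were lower in CCD at 30 min, against 11% of all genes, with a median difference of -0.35; Mt-co1, Mt-nd2 and Mt-nd6 were not called. At 3 h 13 of 13 were lower in the UUO animals, against 6.81% of all genes, with a median of -0.68.

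**Figure D3:**
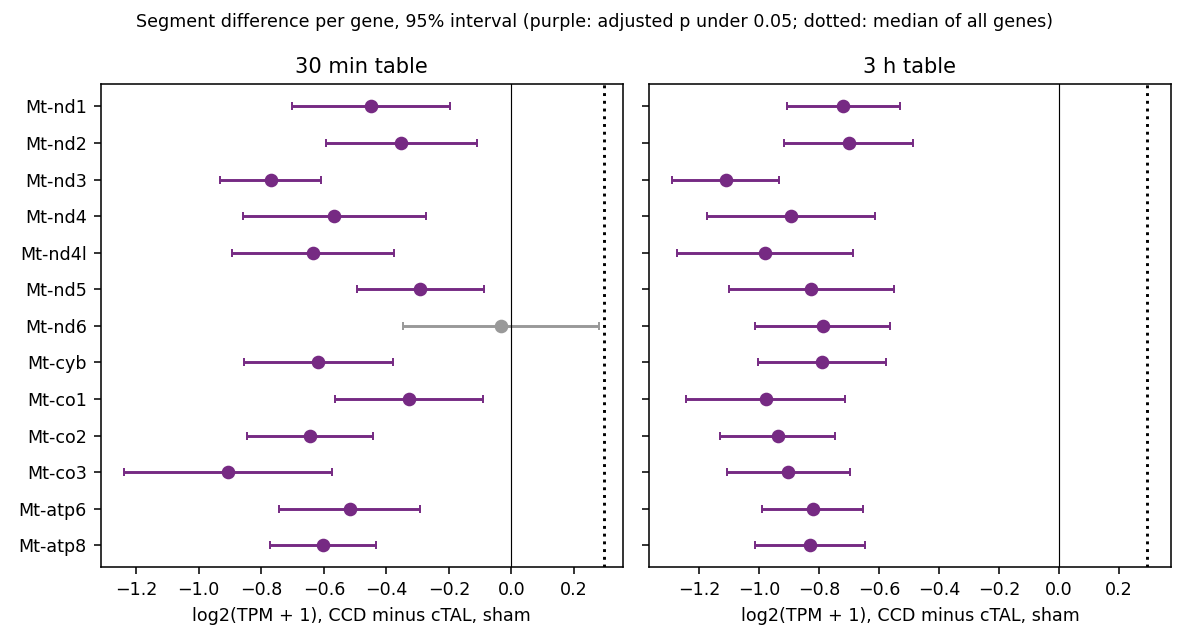
Difference between sham CCD and sham cTAL in log2(TPM + 1) (x axis) for each gene (y axis), with 95% intervals from limma over 4 pairs of same-numbered replicates, in the 30 min and 3 h tables. Purple marks an adjusted p under 0.05, grey Mt-nd6 at 30 min, which did not pass, and the dotted line the median of all genes tested (0.30 at each time).

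Nuclear genes for other subunits of the same complexes showed the same direction between the segments. Of 33 such genes tested, 21 were lower and 2 higher in CCD at 30 min (median -0.29), and 22 were lower and 0 higher at 3 h (median -0.43), beside the 13.2% and 10.4% of all genes called lower. Ndufs8, an iron-sulphur subunit of complex I, was 1.72-fold lower in CCD at 30 min (690 ± 44.6 against 1187 ± 86.2 TPM, SD, n = 4, adjusted p = 0.000238) and 1.81-fold lower at 3 h (adjusted p = 0.000275). Atp5mc1, which encodes the c-ring subunit of ATP synthase, was 1.53-fold and 1.64-fold lower (adjusted p = 0.000312 and 0.00089). Cox6b1 and Cox6c of complex IV were 1.498-fold and 1.51-fold lower at 30 min, and Cox5b and Cox6a1 were 1.66-fold and 1.62-fold lower at 3 h, each with an adjusted p under 0.001. The 2 that were higher in CCD at 30 min, named after their values were seen, were Cyc1 (cytochrome c1, log2 1.28, adjusted p = 0.00117) and Uqcrfs1 (the Rieske protein, log2 1.20, adjusted p = 0.00401), both of complex III. The list kept more lower than higher calls under each of the 3 rescalings: 24 to 27 lower against 2 or 3 higher in the 30 min table, and 26 to 29 lower against 0 higher in the 3 h table. Of all genes under these rescalings, 2009 to 3174 were lower and 2857 to 4027 higher at 30 min, of 11474 to 12039 tested. At 3 h 1219 to 1775 were lower and 1554 to 2495 higher, of 10377 to 10680 tested. In the UUO animals at 30 min Ndufs8 was called, while Atp5mc1, Cox6b1 and Cox6c were not.

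The genes that transcribe and maintain mitochondrial DNA were split. Of 16 tested, 3 were higher and 2 lower in CCD at 30 min, where 41.7% of all genes were called higher and 13.2% lower. After median-of-ratios rescaling 1 was higher and 6 lower, beside 2977 and 2854 of 11493 genes. At 3 h 1 was higher and 1 lower, where 27.7% and 10.4% of all genes were. After that rescaling 0 were higher and 4 lower at 3 h, beside 1554 and 1775 of 10377 genes. Polg, the catalytic subunit of the mitochondrial DNA polymerase, was higher (log2 0.67, adjusted p = 0.00722), and its accessory subunit Polg2 was lower (log2 -0.95, adjusted p = 0.00168), both also at 3 h (log2 0.81 and -0.98, adjusted p = 0.0383 and 0.00722), where they were the genes called. Mterf3 and Top1mt were higher at 30 min (log2 0.49 and 0.50). At 30 min the call of Polg was lost without the pairing by number, after quantile normalization and in the UUO animals, and those of Mterf3 and Top1mt after median-of-ratios rescaling, after quantile normalization and in the UUO animals. Of 22 genes of mitochondrial RNA processing and stability, 4 were higher and 1 lower in CCD at 30 min, beside the 41.7% and 13.2% of all genes. Elac2, which cuts the 3′ ends of mitochondrial transfer RNAs (log2 1.09, adjusted p = 0.00108), Lrpprc, which stabilises mitochondrial messenger RNA (1.00, 0.000847), Rexo2 (1.298, 0.000182) and Pde12 (0.97, 0.00306), which degrade RNA, were higher, and none of these 4 was called in the UUO animals. At 3 h 3 were higher (Elac2, Rexo2 and Pde12, log2 0.88, 0.73 and 1.35) and Grsf1, a protein of mitochondrial RNA granules, was lower (-0.67). Of all genes at 3 h, 27.7% were called higher and 10.4% lower. After median-of-ratios rescaling the RNA processing list had 12 lower and 4 higher in the 30 min table, beside 2854 and 2977 of 11493 genes. It had 3 lower and 0 higher in the 3 h table, beside 1775 and 1554 of 10377 genes. Several 3 h calls of these genes were lost when 1 replicate was left out, while 4015 calls over all genes became 2218 to 3073. The call of Polg was lost whichever replicate was left out, and those of Elac2 and Grsf1 without replicate 2 or 3. That of Rexo2 was lost without replicate 1, 2 or 3, and that of Pde12 without replicate 1, 2 or 4. Top1mt at 30 min was not called without replicate 4. In the UUO animals at 3 h Polg, Polg2, Elac2, Rexo2, Pde12 and Grsf1 were not called, and without the pairing by number Polg was not.

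Among 11 regulators of mitochondrial biogenesis tested at 30 min, 3 were higher and 5 lower in CCD, beside the 41.7% and 13.2% of all genes. After median-of-ratios rescaling 2 were higher and 7 lower, beside 2977 and 2854 of 11493 genes. The nuclear receptors Esrrb and Ppara were 3.20-fold and 1.94-fold lower on the log2(TPM + 1) scale, with 0.0163 and 0.770 TPM in CCD against 2.32 and 2.42 TPM in cTAL, whereas Esrra and Gabpb1 were 2.38-fold and 2.01-fold higher. Each of these 4 had an adjusted p under 0.002, and Esrra and Gabpb1 were not called in the UUO animals. At 3 h 1 of 8 was higher (Gabpb1, log2 1.01, adjusted p = 0.0224) and 1 lower (the deacetylase Sirt3, log2 -0.92, adjusted p = 0.00567), beside 27.7% and 10.4% of all genes. Of 12 genes of a list chosen for mitochondrial stress, 7 were higher and 3 lower in CCD at 30 min, where 41.7% and 13.2% of all genes were. At 3 h 3 were higher, where 27.7% of all genes were. The secreted factor Gdf15 was higher in CCD at both times (at 30 min CCD averaged 317 ± 337 TPM and cTAL 0.0900 ± 0.180 TPM, at 3 h CCD 6.35 ± 3.91 TPM and cTAL 0.0375 ± 0.0750 TPM; adjusted p = 3.34e-05 and 0.00089), and the matrix chaperones Hspd1 and Hspa9 were lower at 30 min (log2 -0.76 and -0.42). Trib3 and Atf4 were higher at 3 h (log2 0.99 and 0.42, adjusted p = 0.0201 and 0.0254), but Trib3 was not called without replicate 1, 2 or 3, nor Atf4 when any replicate was left out. The 3 h call of Gabpb1 was lost without replicate 1, 3 or 4. Hspa9 at 30 min and Gabpb1, Sirt3 and Trib3 at 3 h were not called in the UUO animals. The split of the stress list became 4 lower and 3 higher in the 30 min table, and 4 lower and 1 higher in the 3 h table, after median-of-ratios rescaling. All genes then gave 2854 lower and 2977 higher of 11493 at 30 min, and 1775 and 1554 of 10377 at 3 h.

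The comparison of UUO with sham asked whether obstruction changed these transcripts within a segment. None of the 13 genes passed the test in any of the 4 comparisons (limma, Benjamini-Hochberg adjustment, threshold 0.05). At an unadjusted p under 0.05 there were 6 in CCD at 30 min, where 15.7% of all genes were, and 0 in CCD at 3 h (30.9% of all genes), cTAL at 30 min (2.27%) and cTAL at 3 h (28.4%). Of all genes tested, 0.0264% were called in CCD at 30 min, 13% in CCD at 3 h, 0.0091% in cTAL at 30 min and 11.7% in cTAL at 3 h. The mitochondrial genes thus contributed 0 of the 1373 and 1173 genes called in CCD and cTAL at 3 h. An adjusted p above the threshold does not show that a level was the same in both arms, and the 95% intervals of the 13 genes reached from -0.44 to 0.80 in CCD at 30 min, from -0.41 to 0.73 in CCD at 3 h, from -0.35 to 0.52 in cTAL at 30 min and from -0.58 to 0.67 in cTAL at 3 h, in log2 units.

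**Figure D4:**
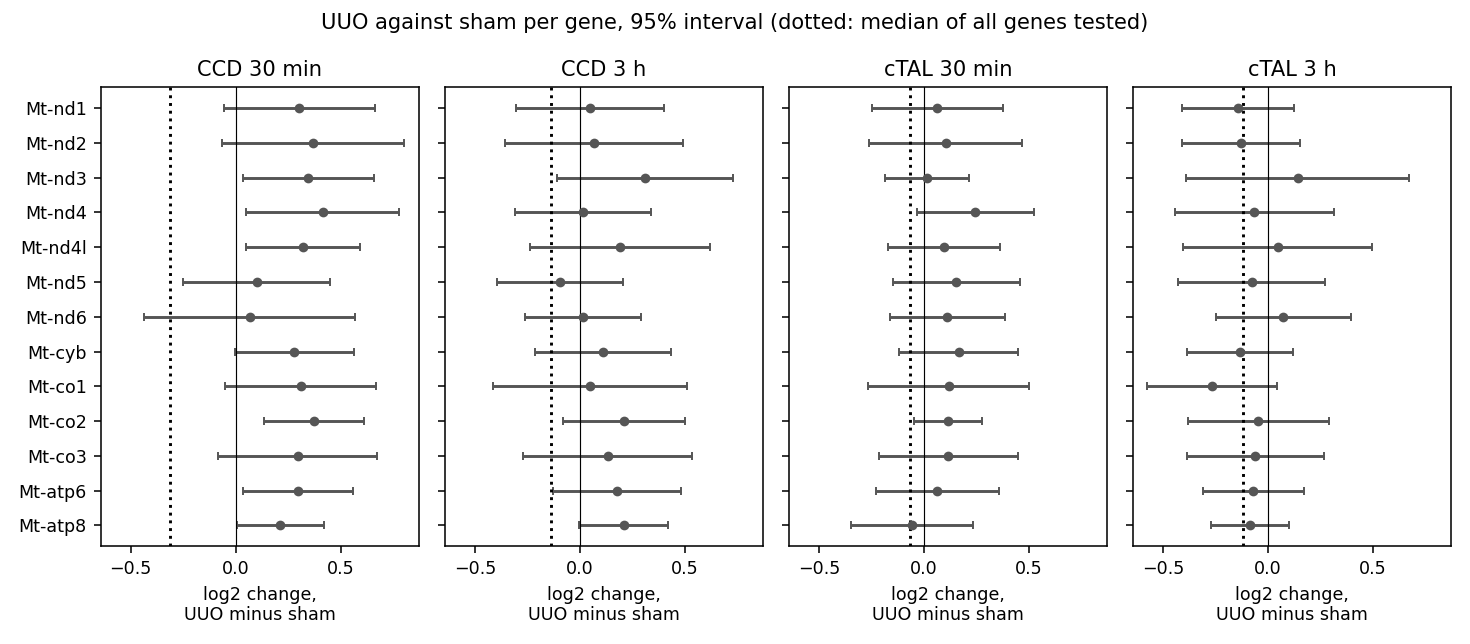
Difference between UUO and sham in log2(TPM + 1) (x axis) for each gene (y axis) with 95% intervals from limma, 4 replicates per arm, in the 4 combinations of segment and time. No gene passed an adjusted p of 0.05, and the dotted line is the median of all genes tested, -0.31 in CCD at 30 min and between -0.14 and -0.07 in the other panels.

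In CCD at 30 min all 13 estimates were above 0, between 0.07 and 0.41, with a median of 0.30 against -0.31 over all genes tested. Mt-co2 had the smallest p: it measured 21544, 17655, 16701 and 19932 TPM in sham and 22009, 28706, 24547 and 23333 TPM in UUO. Its arms did not overlap, which held for 1 of the 13 genes and for 8.76% of all genes, but the difference did not pass (log2 0.37, SE 0.11, unadjusted p = 0.00587, adjusted p = 0.243). Mt-nd4l, with 6692 to 9675 TPM in sham, measured 9865, 10095, 8861 and 9729 TPM in UUO (log2 0.32, SE 0.12, adjusted p = 0.287; -0.12 after quantile normalization). Mt-nd4, the messenger partner of Mt-nd4l, measured 5603, 4759, 4248 and 3662 TPM in sham and 5773, 8132, 4955 and 5883 TPM in UUO (log2 0.41, SE 0.16, adjusted p = 0.292). Its highest value came from UUO replicate 2, whose library 2 held 10451 TPM and library 1 5814 TPM. The share of TPM was 20.1, 19.99, 17.3 and 20.4% in UUO, a mean of 19.5 ± 1.44% against 15.7 ± 2.15% in sham, and sham replicate 1 with 18.9% lay above the lowest UUO replicate. The principal cell sum was 10460 ± 2077 TPM in sham and 7480 ± 1938 TPM in UUO, the thick ascending limb sum 1180 ± 352 and 888 ± 359 TPM, and the red blood cell sum 438 ± 216 and 872 ± 658 TPM; their part in these values was not tested.

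The estimate for CCD at 30 min moved with the scaling and with the libraries used. The median of the 13 genes was 0.68 after median-of-ratios rescaling, which moved the all-gene median from -0.31 to -0.02, and 0.05 after quantile normalization, where 4 of the 13 estimates lay below 0. With library 1 of each replicate alone 956 of 11384 genes were called, 7 higher and 949 lower, and Mt-co3 was among the 7 (log2 0.59, adjusted p = 0.0406). With library 2 alone 1 of 11224 genes was called, and 0 members were. With UUO replicate 2 taken from its library 1 alone, 3 of 11377 genes and 0 members were called, and Mt-co3 came to log2 0.45 (adjusted p = 0.165).

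In CCD at 3 h 12 of 13 estimates were above 0, with a median of 0.11 against -0.14 over all genes. Mt-atp8 measured 9159, 9268, 11612 and 10543 TPM in sham and 11261, 11321, 12198 and 12081 TPM in UUO (log2 0.21, SE 0.09, adjusted p = 0.165), and its arms overlapped through sham replicate 3. Mt-nd3 measured 334, 208, 347 and 265 TPM in sham and 403, 360, 263 and 383 TPM in UUO (log2 0.31, SE 0.19, adjusted p = 0.294). Mt-co2 measured 7131, 4949, 7368 and 6320 TPM in sham and 7301, 7594, 6561 and 8088 TPM in UUO (log2 0.21, SE 0.13, adjusted p = 0.308). For 0 of the 13 genes the arms were separate, while they were for 20.9% of all genes. The share was 5.92, 6.25, 6.77 and 7.92% in UUO, a mean of 6.72 ± 0.875% against 6.04 ± 0.912%. Sums of proximal tubule markers (434 ± 312 TPM in sham, 2430 ± 1163 TPM in UUO) and of red blood cell markers (460 ± 451 and 3940 ± 2115 TPM) differed between these arms. The principal cell sum was 16874 ± 1233 and 8446 ± 2011 TPM. The thick ascending limb sum was 2874 ± 2535 and 2842 ± 5022 TPM, with 10373 TPM in the highest UUO replicate. The part of these sums in the values of the 13 genes was not tested.

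In cTAL at 30 min 12 of 13 estimates were above 0, with a median of 0.11 against -0.07 over all genes, and every member had an adjusted p of 1.00. Quantile normalization turned the direction of 4 of the 13. Mt-nd4 measured 6242, 6665, 8161 and 5812 TPM in sham and 9071, 7579, 7128 and 7962 TPM in UUO (log2 0.25, SE 0.12). The lowest UUO value lay within the sham range, as it did for Mt-co2, with 27992, 29396, 29412 and 31144 TPM in sham and 32356, 31376, 33038 and 30925 TPM in UUO (log2 0.12, SE 0.07). Mt-cyb measured 12607, 10788, 13626 and 9717 TPM in sham and 15188, 12449, 12013 and 12574 TPM in UUO (log2 0.17, SE 0.13). The arms overlapped for 13 of 13 genes, while they were separate for 1.72% of all genes. The share was 28.5, 25.9, 21.6 and 26.4% in UUO, with a mean of 25.6 ± 2.91% against 24.0 ± 2.45% in sham.

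In cTAL at 3 h 10 of 13 estimates were below 0, with a median of -0.07 against -0.12 over all genes, and 8 of them turned above 0 after median-of-ratios rescaling. Mt-co1 measured 6609, 5234, 6504 and 7063 TPM in sham and 6505, 4265, 5591 and 4900 TPM in UUO (log2 -0.27, SE 0.14, adjusted p = 0.240). UUO replicates 1 and 3 lay within the sham range, and UUO replicates 2 and 4 lay below all 4 sham replicates. Mt-nd1 measured 5741, 4596, 5625 and 7065 TPM in sham and 5276, 4795, 5479 and 5097 TPM in UUO (log2 -0.14, SE 0.12, adjusted p = 0.485). Mt-cyb measured 5389, 4703, 6198 and 6790 TPM in sham and 5406, 5154, 4886 and 5438 TPM in UUO (log2 -0.13, SE 0.11, adjusted p = 0.492; 0.01 after median-of-ratios rescaling). For 0 of the 13 genes the arms were separate, while they were for 19.8% of all genes. The share was 10.6, 10.3, 9.34 and 10.6% in UUO, a mean of 10.2 ± 0.595% against 10.9 ± 1.56% in sham. The proximal tubule sum (903 ± 320 TPM in sham, 2941 ± 1254 TPM in UUO) and the red blood cell sum (1253 ± 938 and 4121 ± 2936 TPM) differed here too, and their part was not tested.

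The difference between the segments in their UUO change was tested directly. None of the 13 genes passed at 30 min, where 0% of 12075 genes did in limma (1792 genes, 3 of them members, at an unadjusted p under 0.05). None passed at 3 h, where 1.14% of all genes did. The members' median, the CCD change minus the cTAL change in log2, was 0.22 at 30 min and 0.19 at 3 h. Mt-atp8 had the smallest p each time (0.27, SE 0.09, adjusted p = 0.204 at 30 min, -0.14 after quantile normalization; 0.29, SE 0.10, adjusted p = 0.203 at 3 h). At 30 min Mt-nd3 (0.33, SE 0.12, adjusted p = 0.238) and Mt-co2 (0.26, SE 0.11, adjusted p = 0.323) came next, and at 3 h Mt-atp6 (0.25, SE 0.11, adjusted p = 0.326; -0.11 after quantile normalization) and Mt-co2 (0.26, SE 0.13, adjusted p = 0.407).

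Likewise, 0 of 13 genes passed for a UUO change that differed between 3 h and 30 min, in CCD (1.62% of all genes called) or in cTAL (2.38%). The medians, 3 h minus 30 min, were -0.16 and -0.18. In CCD the smallest p belonged to Mt-nd4 (-0.40, SE 0.23, adjusted p = 0.404), Mt-nd1 (-0.25, SE 0.24, adjusted p = 0.631) and Mt-nd2 (-0.30, SE 0.29, adjusted p = 0.648). In cTAL it belonged to Mt-cyb (-0.30, SE 0.17, adjusted p = 0.438), Mt-co1 (-0.38, SE 0.23, adjusted p = 0.458) and Mt-nd4 (-0.31, SE 0.22, adjusted p = 0.554).

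Nuclear genes in 5 lists (mitochondrial transcription and DNA maintenance, RNA processing, biogenesis, partner subunits and stress) were compared between UUO and sham as well. What kind of stress the genes of the stress list reflect was not tested. At 3 h 4 of 93 tested rose and 3 fell in CCD, beside 5% and 8.04% of all genes. In cTAL 6 of 89 rose and 6 fell, beside 4.06% and 7.64% of all genes. In cTAL 5 of 12 stress genes rose and 0 fell, where 4.06% of all genes tested rose and 7.64% fell. Chac1, which degrades glutathione, reached 6.95 ± 3.77 TPM from 0.0850 ± 0.128 TPM (log2 2.74, SE 0.37, adjusted p = 0.00288), the kinase-like regulator Trib3 19.8 ± 6.19 TPM from 4.31 ± 1.93 TPM (log2 1.98, adjusted p = 0.00789), the transcription factor Atf4 237 ± 54.7 TPM from 77.3 ± 8.63 TPM (log2 1.58, adjusted p = 0.00113) and the mitophagy receptor Bnip3 854 ± 234 TPM from 314 ± 62.9 TPM (log2 1.42, adjusted p = 0.00424). Pink1, a kinase that marks damaged mitochondria, was the fifth and was named after its values were seen (log2 0.81, adjusted p = 0.0328). Its call with single replicates left out is not given here. In CCD 3 of 13 stress genes rose and 0 fell, where 5% of all genes rose and 8.04% fell: Chac1 (log2 1.33, adjusted p = 0.0192), Atf4 (0.62, 0.00893) and Bnip3 (0.60, 0.0203). These counts of 5 and 3 were the same under median-of-ratios rescaling, with the members left out of the total and after quantile normalization. Of all genes under these settings, 396 to 496 rose in cTAL and 536 to 689 in CCD, of 10241 to 10665 tested. Atf4, Chac1, Bnip3 and Trib3 were called in cTAL whichever replicate was left out. In CCD Chac1 was not called without sham replicate 3 or 4, and Bnip3 was not without sham replicate 1 or 2 or with library 2 of each number alone. Atf4 was not called in CCD with library 1 of each number alone.

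Of 16 genes of mitochondrial transcription and DNA maintenance, 2 fell in each segment at 3 h, beside the 7.64% of all genes in cTAL and 8.04% in CCD. In cTAL these were Mgme1, an exonuclease of mitochondrial DNA (10.1 ± 2.47 to 3.84 ± 0.938 TPM, log2 -1.19, adjusted p = 0.0240), and Tfam, which packages mitochondrial DNA and starts its transcription (108 ± 21.6 to 64.8 ± 8.18 TPM, log2 -0.72, adjusted p = 0.0268). In CCD they were Mgme1 (13.04 ± 1.33 to 7.07 ± 1.57 TPM, log2 -0.81, adjusted p = 0.0235) and Polrmt, the mitochondrial RNA polymerase (12.8 ± 2.12 to 7.11 ± 2.09 TPM, log2 -0.80, adjusted p = 0.0444). After median-of-ratios rescaling 1 of 16 was called in each segment, beside 926 of 10275 genes in cTAL and 1169 of 10328 in CCD. With the replicate block 0 were, beside 580 of 10023 genes in cTAL and 770 of 10530 in CCD. The count was 0 in cTAL without UUO replicate 3 or 4 or sham replicate 2 or 3, and 0 in CCD without UUO replicate 4 or sham replicate 2, 3 or 4. Of these, Tfam was also lost without sham replicate 4, Polrmt whichever replicate but UUO replicate 1 was left out and with either library alone, and Mgme1 in CCD with library 2 alone. The RNA methyltransferase Mrm2 fell in cTAL (log2 -1.48, adjusted p = 0.0148) and Mto1, which modifies transfer RNA, in CCD (log2 -0.53, adjusted p = 0.0484), each as 1 of 22 genes of RNA processing. Both calls were lost with the replicate block. That of Mto1 was also lost after median-of-ratios rescaling and quantile normalization, without the filter on low values, with either library alone and whichever replicate but UUO replicate 1 was left out.

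Among regulators of biogenesis at 3 h, Nrf1 rose (log2 1.04, adjusted p = 0.0231) and Sirt3 fell (log2 -0.77, adjusted p = 0.0346) in cTAL, as 2 of 6 tested. Pprc1 rose in CCD (0.846 ± 0.285 to 2.14 ± 0.432 TPM, log2 0.75, adjusted p = 0.0364), as 1 of 9. The Pprc1 call was lost with a pseudocount of 0.1 TPM, without the filter on low values and with either library alone. Of all genes, 4.06% rose and 7.64% fell in cTAL, and 5% rose and 8.04% fell in CCD. Of the 33 nuclear partners, 0 were called in CCD at 3 h, where 13% of all genes were. At an unadjusted p under 0.05 there were 0 as well, where 30.9% of all genes were. In cTAL Ndufs8 (log2 -0.32, adjusted p = 0.0427) and Ndufs7 (log2 -0.37, adjusted p = 0.0483) fell, as 2 of 33, beside 7.64% of all genes. Neither of these was called after median-of-ratios rescaling. Sirt3 was not called after that rescaling either. Each of these 5 calls was lost with the replicate block and when single replicates were left out: sham replicates 2 and 4 and UUO replicates 2 and 4 for Nrf1, all but sham replicate 1 for Sirt3, all 8 for Ndufs7, all but sham replicate 4 for Ndufs8, and all but UUO replicate 1 for Pprc1. At 30 min no gene of the 5 lists passed in either segment, and at an unadjusted p under 0.05 there were 12 of 92 in CCD and 3 of 94 in cTAL, where 15.7% and 2.27% of all genes were. The genes of smallest p were Pink1 (log2 -0.94, adjusted p = 0.235), Uqcrb (0.34, 0.255), Esrra (-0.82, 0.256), Pde12 (-0.91, 0.256) and Polg (-0.74, 0.327) in CCD, and Mrm3 (log2 -0.52), Tefm (-0.34), Ndufb8 (0.17), Ddit3 (-0.43) and Ppargc1b (-0.42) in cTAL, each with an adjusted p of 1.00.

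The makeup of the mitochondrial TPM also varied between numbered replicates within an arm. Mt-co2 made up 12.3, 10.003, 10.3 and 10.01% of it in sham CCD replicates 1 to 4 at 3 h, and 13.6, 10.9, 10.6 and 10.2% in sham cTAL. In UUO at 3 h it made up 12.3, 12.1, 9.69 and 10.2% in CCD and 13.4, 12.8, 9.60 and 10.8% in cTAL. The same replicate number was highest in both segments of each arm. At 30 min the sham percentages were 11.4, 11.6, 11.9 and 13.6% in CCD and 11.4, 11.9, 11.2 and 15.2% in cTAL, with sham replicate 4 highest in both. In UUO at 30 min they were 10.9, 14.4, 14.2 and 11.4% in CCD and 11.4, 12.1, 15.3 and 11.7% in cTAL, where the highest replicate was not the same. These values were not tested.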

How the data were processed

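RNA of microdissected rat tubules was sequenced from cDNA amplified by 15 PCR cycles with a template-switching kit that does not mark strand, per the labels' protocols. The submitters' processing notes name STAR 2.7.3, RSEM 1.3.3 and the build Rnor_6.0. The authors deposited 1 table of transcripts per 1000000 (TPM) per time, and depth cannot be recovered from TPM. The 48 microdissected libraries (24 a table) were used, and 8 whole-kidney samples were not analysed here. The members and gene lists were chosen with earlier results of these data known.

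Values were analysed as log2(TPM + 1), a log2 scale computed from the authors' deposited TPM, after keeping genes at 1 TPM or more in at least 4 of 8 replicates. For each CCD number the mean of its 2 libraries on that scale entered the fits, while printed CCD levels are the mean of their TPM. Tests used limma 3.58.1 (R 4.3.3) with a mean-variance trend and Benjamini-Hochberg adjustment over all genes tested, at a threshold of 0.05. UUO and sham were compared without pairing, and the segments were paired by number. Correlations of same-numbered sham deviations across the segments were 0.271 to 0.392 at 30 min and 0.0617 to 0.2099 at 3 h (over 0.1 for 4 and 3 of 4 numbers). Different numbers were not set beside them across the segments, so these values do not show that the numbers are pairs. Nothing in the labels says more of what a shared number means, so p-values measure the spread between numbered samples, which may be partly technical. Correlations of deviations between same-numbered sham and UUO samples were over 0.1 for 4 of 4 numbers in CCD at 30 min (0.115 to 0.229), and for 1 of 4 or 0 of 4 elsewhere. Samples of different numbers in CCD at 30 min ranged from -0.260 to 0.298, so the same-number values do not single out a pairing. In CCD at 30 min the replicate block also called 0 of 13 genes. Named members are the 3 of smallest p per UUO comparison and difference of changes and the 6 of smallest p per segment comparison; list genes are up to 4 called genes of smallest p per list, or the gene of smallest p where none was called. Of 163 list and marker symbols, 156 matched the tables. The fits were also run on simulated data, with each UUO mean set to the measured sham mean before known changes were added. That leaves out part of the sampling spread, so the simulated run does not give the rate of false calls here.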

Additional observations from a re-analysis of the deposited data

Results flagged for a closer look

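In 7 of 112 sets of 4 replicates tested, 1 replicate lay far from the other 3; chance flags about 5% of such sets, or 5.6 of 112. The measure is the gap of the extreme replicate to its nearest neighbour divided by the range of the set. In CCD after UUO at 30 min, the mitochondrial share was low in replicate 3 (17.3% against 19.99 to 20.4%, ratio 0.872), Mt-co1 was low in replicate 3 (11279 TPM against 12963 to 13200 TPM, ratio 0.877) and Mt-nd3 was high in replicate 2 (1827 TPM against 1113 to 1201 TPM, ratio 0.877). In that replicate 2 the libraries held 2784 and 871 TPM of Mt-nd3. Mt-cyb was high in sham CCD replicate 1 at 30 min (9755 TPM against 6718 to 7179 TPM, ratio 0.848). Mt-co3 was high in UUO CCD replicate 4 at 3 h (12882 TPM against 9166 to 9526 TPM, ratio 0.903). Mt-atp6 was low in UUO cTAL replicate 3 at 30 min (50419 TPM against 68540 to 70007 TPM, ratio 0.925) and high in UUO cTAL replicate 4 at 3 h (35342 TPM against 31513 to 32051 TPM, ratio 0.860).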

How the results depend on the processing

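The count of members called in the 4 UUO comparisons was 0 of 13 under every alternative run but library 1 alone in CCD at 30 min, where it was 1. With the replicate block it was 0 in all 4, with a smallest adjusted p of 0.136 in CCD at 30 min. Without the replicate block (the pairing by number) 9 of 13 members were called between the segments at 30 min and 13 at 3 h. Leaving out replicates gave 9 to 12 and 13 to 13 members. Without a filter on low values 7 were called at 30 min, and after quantile normalization 5. The members' medians after median-of-ratios rescaling were 0.68 (CCD UUO at 30 min), -0.92 and -1.16 (segments at 30 min and 3 h) and 0.51 (difference of UUO changes at 30 min); after quantile normalization the values for 30 min were 0.053, -0.0016 and -0.0014, and the UUO animals gave -0.35 between segments. Quantile normalization turned Mt-nd4l (-0.12), Mt-cyb (-0.087), Mt-atp8 (-0.029) and Mt-nd1 (-0.0014) for UUO in CCD at 30 min. Between segments it turned Mt-atp8 (0.38), Mt-co1 (0.36), Mt-co2 (0.26), Mt-nd1 (0.13), Mt-atp6 (0.093) and Mt-nd4l (0.0033) at 30 min, the first pair called higher in CCD, and Mt-atp6 (0.34) at 3 h. It turned 2, 4 and 1 members for UUO in CCD at 3 h and in cTAL at 30 min and 3 h. For the differences of changes it turned 5 members at 30 min, among them Mt-atp8 (-0.14), and Mt-atp6 (-0.11) at 3 h, and over time 5 in CCD and 2 in cTAL. Median-of-ratios rescaling turned 8 members in cTAL UUO at 3 h, among them Mt-cyb (0.0098). The cause of these turns was not tested. Without 1 replicate the medians ranged from 0.23 to 0.41 (CCD UUO, 30 min), -0.0016 to 0.22 (CCD, 3 h), 0.015 to 0.17 (cTAL, 30 min), -0.16 to 0.026 (cTAL, 3 h), -0.64 to -0.44 and -0.91 to -0.77 (segments), and the UUO minus sham share from 3.20 to 4.79, 0.269 to 1.03, 0.372 to 2.89 and -1.22 to 0.0154 points. Among all genes, 1373 calls in CCD at 3 h became 852 without the filter, 770 with the replicate block, 458 to 1596 without 1 replicate, and 676 or 490 from 1 library; 1173 in cTAL at 3 h became 760, 580 and 439 to 988. Between segments 6400 became 2830 in the UUO animals at 30 min, and 4015 became 2218 to 3073 without 1 replicate at 3 h. The differences of changes went from 126 to 77 (pseudocount 0.1) or 20 (no filter) at 3 h, and from 190 to 85 or 35 in CCD over time. The split of higher to lower calls after median-of-ratios rescaling was 2977 to 2854 in place of 4859 to 1541 (segments, 30 min), 1554 to 1775 in place of 2916 to 1099 (3 h), 689 to 480 in place of 526 to 847 (CCD UUO, 3 h) and 496 to 430 in place of 407 to 766 (cTAL UUO, 3 h). Quantile normalization, the single-library choice of UUO replicate 2 and the UUO animals were chosen after seeing the data. A planned fit without ribosomal and transfer RNA members was not run, since 13 of 13 members are protein-coding by symbol.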

Other observations

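Ratios between neighbouring mitochondrial genes differed between the tables, whose preparation and time cannot be told apart. In sham CCD the mean ratio of Mt-nd4l to Mt-nd4 was 1.70 at 30 min and 0.668 at 3 h, and in sham cTAL it was 1.79 and 0.706. The mean ratio of Mt-atp8 to Mt-atp6 was 0.382 and 0.520 in sham CCD and 0.406 and 0.524 in sham cTAL. These overlapping pairs share messenger RNA, and no test was run. Mt-co3 to Mt-atp6 was 0.764 in sham CCD and 0.989 in sham cTAL at 30 min, and 0.477 and 0.502 at 3 h.

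Mt-nd3 varied by replicate at 3 h as a part of the mitochondrial TPM, with 0.577, 0.421, 0.487 and 0.420% in sham CCD and 0.701, 0.465, 0.625 and 0.473% in sham cTAL, and replicates 1 and 3 were the higher ones in both segments.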
